A study of Mus musculus with 3 samples.

Results

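The 30 genes described here are the listed genes of fatty acid oxidation, ketogenesis, the PPAR alpha response and gluconeogenesis. They were chosen by name, with earlier results of these data known, from the 55421 gene identifiers counted in single-cell RNA libraries of mouse liver. All 30 were found. Hepatocyte-like cells of the 3 libraries together held at least 1 unique molecular identifier (UMI, 1 counted RNA molecule) of each of them. By library, 25 members had a UMI in such cells of IDD, and 30 did in each of IDD+HTF and IDD+HID.

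Each library came from the liver of 1 wild-type mouse, and all 3 mice ate an iron-deficient diet of 2 to 6 ppm iron for 1 week. The IDD mouse received nothing further and is the control. The IDD+HTF mouse was injected into the tail vein with 10 mg of holo-transferrin, meaning transferrin of the plasma with its iron bound. The IDD+HID mouse then ate, for 18 h, chow carrying 2% carbonyl iron. Strain, age and sex, food intake, and the time between injection and collection are not given in the labels. Livers were digested and a small part of the hepatocyte suspension was mixed into the suspension of the other cells, so cell shares reflect that mixing. The study asked, per its title, how liver sinusoidal endothelial cells respond to iron, and the members are a readout of hepatocyte fuel metabolism in the same libraries. With 1 mouse per group, no difference could be tested. Every interval below is an exact 95% interval that covers counting error only, and both treated libraries are set against the same IDD library.

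PPAR alpha is a nuclear receptor of the hepatocyte that binds fatty acids and, paired with RXR, turns on genes that burn fat. In the fasted liver, fatty acids released from fat tissue enter mitochondria through the carnitine shuttle and are shortened by beta oxidation, and the product feeds ketone bodies. Very long chains are shortened in peroxisomes, and a side route, omega oxidation by Cyp4a enzymes, rises with the load of fatty acids. Gluconeogenesis, the making of glucose, is switched on in the same fasted state, mainly by glucagon and glucocorticoids.

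The class called hepatocyte-like was made of clusters 2, 6 and 7, built without the members and the related pathway genes. In the order IDD, IDD+HTF, IDD+HID, which is kept for every set of 3 values below, it comprised 245, 1031 and 259 cells with 662876, 2783342 and 976246 UMIs. Alb, the plasma albumin gene, stood at 23858, 20734 and 28516 CPM (counts per 1000000 UMIs of the class), and all 13 hepatocyte markers were present in each library. The class differed between the libraries in its clusters and in its ribosomal RNA. Cluster 6, led by Fabp1 and Bhmt, held 23.7% of the class's cells in IDD and 19.2% in IDD+HTF but 67.2% in IDD+HID, where clusters 2 and 7 held the other 37 and 48 cells. Ribosomal RNA and repeat transcripts made up 28.5% and 31.5% of the class's UMIs in IDD and IDD+HTF and 7.09% in IDD+HID. By cluster these shares were 45.4%, 44.4% and 28.3% in cluster 2. They were 4.29%, 5.02% and 1.76% in cluster 6 and 27.2%, 26.0% and 23.1% in cluster 7. Cluster 6 had the lowest share in each library, so its larger part of IDD+HID went with lower ribosomal RNA over the class. The share was also lower in IDD+HID than in IDD within each cluster, so the differences overlapped only in part. The median hepatocyte-like gene was 0.96 higher (log2) in IDD+HID than in IDD when scaled to totals, and 0.08 higher after median-ratio scaling, which sets the typical gene equal. The main counts over the members are given under both scalings. Single ratios are scaled to totals unless said otherwise, and median-ratio scaling lowers every ratio of IDD+HID to IDD over the class by 0.87 (log2). Markers of other cells also differed: the 9 sinusoidal endothelial markers summed to 27.2, 174 and 719 CPM in the class, and the 10 Kupffer cell markers to 36.2, 121 and 402 CPM. RNA of these cell types was thus higher in the class in IDD+HID, and its part in the results was not tested. In IDD, 4 of the 9 endothelial and 4 of the 10 Kupffer markers were at 0. Genes of dissociation and heat shock summed to 754, 899 and 1812 CPM in the class, and their part was not tested.

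Hadha and Hadhb lie back to back, and the stretch between their RefSeq start sites is shown because the genes differed alike in IDD+HID. They encode both subunits of the mitochondrial trifunctional protein, which carries out the last steps of long-chain beta oxidation. In RefSeq (GRCm38.p6) their start sites are 273 bases apart on chromosome 5, with Hadha read to the left and Hadhb to the right. GENCODE M21 ends Hadha at base 30155162, so by that annotation much of the stretch lies within the gene. The stretch chr5:30154971-30155262 is printed on its plus strand, and the capitals mark the first 10 bases of each gene.
Hadha-Hadhb: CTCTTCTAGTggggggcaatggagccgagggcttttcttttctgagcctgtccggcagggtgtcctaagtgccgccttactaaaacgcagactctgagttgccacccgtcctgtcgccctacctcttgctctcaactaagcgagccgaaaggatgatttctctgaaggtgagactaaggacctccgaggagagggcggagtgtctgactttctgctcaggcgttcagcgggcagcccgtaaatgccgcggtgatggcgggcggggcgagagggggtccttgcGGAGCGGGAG

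The sequence bound by PPAR alpha with RXR is a direct repeat of AGGTCA with 1 base between the copies (AGGTCANAGGTCA). It was searched on both strands of RefSeq promoter windows that run from 250 bases before to 50 bases after each start. Of 32851 windows, 13 (0.0396%) held it exactly and 182 (0.554%) with at most 1 mismatch. None of the 24 members with a window held it at 1 mismatch or fewer, and Cyp4a10, Cyp4a14, Cyp4a31, Acaa2, Angptl4 and Vnn1 were not searched. The result says only that these letters are not in these windows. Among 86 other pathway genes with a window, Fabp1 and Gdf15 held a match. The Fabp1 match, in the promoter of the liver fatty acid binding protein, starts 67 bases before the start site and reads on the minus strand. It is shown as an example of how the repeat looks in a gene of the pathway, at chr6:71199752-71199884 on the plus strand, with the match in capitals.
Fabp1: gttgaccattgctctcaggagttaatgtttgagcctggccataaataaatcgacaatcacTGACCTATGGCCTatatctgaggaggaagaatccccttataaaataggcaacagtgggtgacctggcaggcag

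The largest differences were in omega oxidation and the acyl-CoA thioesterases, in IDD+HID. Cyp4a10, Cyp4a14 and Cyp4a31 encode fatty acid omega-hydroxylases and lie together on chromosome 4 (GENCODE M21, GRCm38: Cyp4a14 at 115486200-115496142, Cyp4a10 at 115518264-115533649 and Cyp4a31 at 115563649-115579015). Cyp4a10 had 0, 13 and 145 UMIs, or 0, 4.67 and 149 CPM. Cyp4a14 had 0, 2 and 103 UMIs, or 0, 0.719 and 106 CPM. Only the IDD+HID library held either gene at more than a trace. Against a floor of 3 counts for the class in IDD, Cyp4a10 was 32.8-fold higher in IDD+HID and Cyp4a14 23.3-fold higher. After median-ratio scaling these were 17.9-fold and 12.7-fold. The exact lower limits, which also cover counting error in IDD+HID, were 26.4-fold and 18.6-fold, and 14.4-fold and 10.2-fold after median-ratio scaling. Relative to IDD+HTF, Cyp4a10 was 31.8-fold higher (18.0 to 61.2), and the 2 UMIs of Cyp4a14 there gave a ratio of 147 (39.6 to 1229). Cyp4a31 followed with 0, 3 and 14 UMIs, too few to be counted as measured. Of its transcript-end 31-base words, 32.1% also occur in other genes, mostly its neighbour Cyp4a32, so its count is uncertain, while Cyp4a10 shares 6.23% and Cyp4a14 none.

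Acot1 releases free fatty acids from long-chain acyl-CoA in the cytosol, and Acot2, its neighbour on chromosome 12, does so in mitochondria. Acot1 had 0, 2 and 92 UMIs in hepatocyte-like cells, or 0, 0.719 and 94.2 CPM. Against the floor of 3 counts in IDD it was 20.8-fold higher in IDD+HID (11.4-fold after median-ratio scaling). The exact lower limits were 16.6-fold and 9.06-fold. Acot2 had 0, 3 and 7 UMIs and was not measured. The pair therefore stood apart in the same cells, with Acot1 well above and Acot2 near the floor in IDD+HID. No Cyp4a10 UMI was found in the 245 cells of IDD (0%), a count of 0 that allows a UMI in up to 1.22% of cells at 3 counts (exact upper limit 1.49%) and does not limit the cells that express the gene. It was found in 12 of 1031 cells in IDD+HTF (1.16%, exact Clopper-Pearson 0.603 to 2.02%) and in 77 of 259 in IDD+HID (29.7%, 24.2 to 35.7%). B-like cells, which should lack it, had a Cyp4a10 UMI in 0 of 91, 0 of 180 and 9 of 461 cells, or 1.95% in IDD+HID. After thinning each cell to 1000 UMIs the shares in hepatocyte-like cells were 0%, 0.450% and 14.7%. Median depths of the hepatocyte-like cells were alike, at 2115, 2157 and 2245 UMIs, and those of B-like cells were 4041, 3600.5 and 4567.

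**Figure D1:**
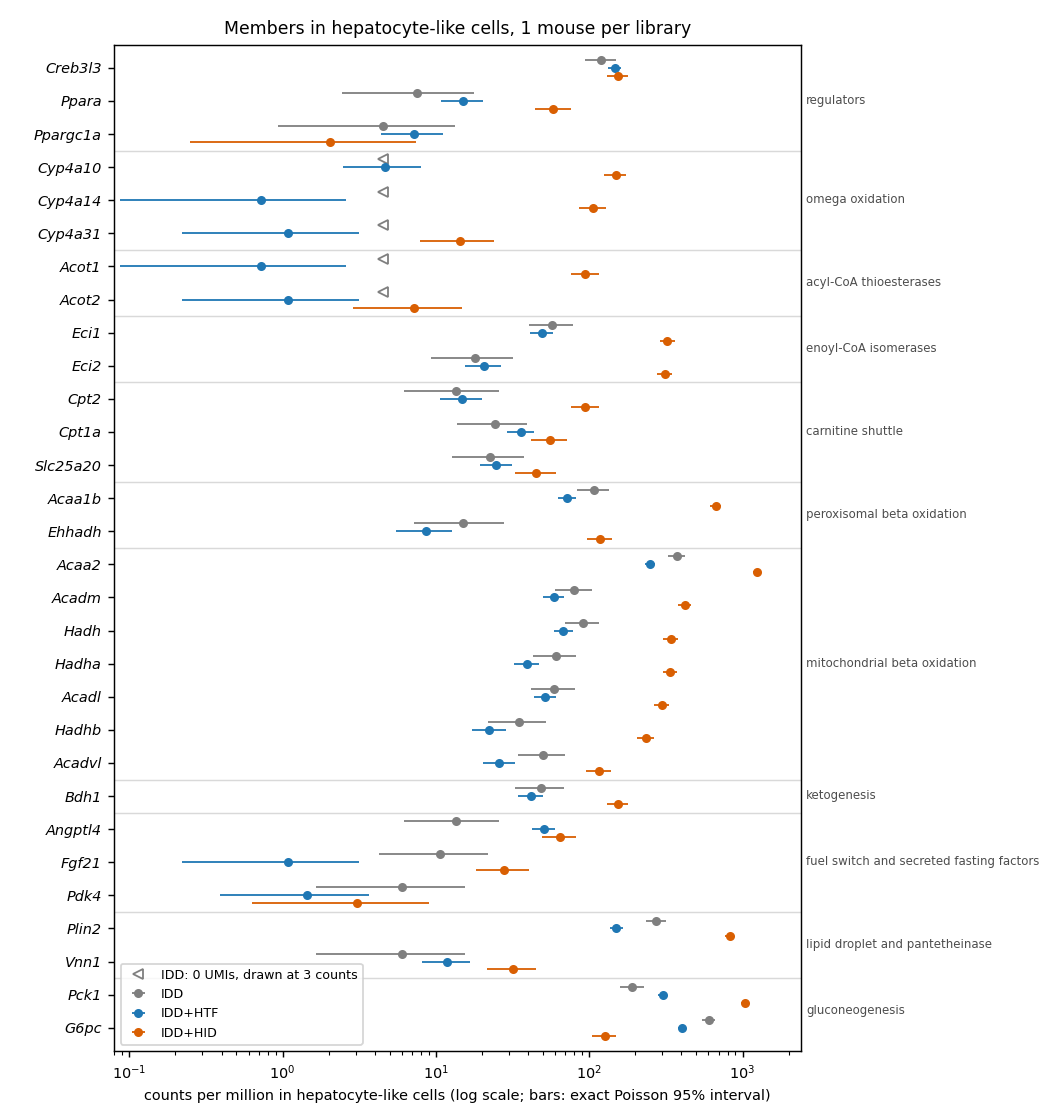
CPM of the 30 members in hepatocyte-like cells, on a log axis, with 1 point per library (grey IDD, blue IDD+HTF, orange IDD+HID) and exact Poisson 95% intervals. Open triangles mark the 5 members with 0 UMIs in IDD, drawn at the level of 3 counts. The orange points lie to the right for most rows, and G6pc at the bottom is lowest in IDD+HID.

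The enzymes of beta oxidation were also higher in IDD+HID, to a lesser degree. The enoyl-CoA isomerases Eci1 and Eci2, which move double bonds so that unsaturated fatty acids can be oxidized, stood at 57.3, 49.2 and 324 CPM and at 18.1, 20.5 and 311 CPM. Eci2 was 17.2-fold higher in IDD+HID than in IDD (9.70 to 33.7; 9.39-fold after median-ratio scaling) and Eci1 5.65-fold (4.02 to 8.13; 3.08-fold). In both, IDD and IDD+HTF had overlapping intervals and IDD+HID lay above them. Of the Eci2 transcript-end words, 15.2% are shared with Eci3, which had 0 UMIs in these cells.

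In peroxisomes, Ehhadh, the bifunctional enzyme, stood at 15.1, 8.62 and 117 CPM, 7.74-fold higher in IDD+HID than in IDD (4.06 to 16.6; 4.22-fold after median-ratio scaling). Acaa1b, the peroxisomal thiolase, stood at 107, 71.9 and 667 CPM, 6.23-fold higher (4.87 to 8.07; 3.40-fold). Acaa1b shares 26.3% of its end words with its paralog Acaa1a, which stood at 57.3, 35.9 and 172 CPM, so reads of the pair may be split unevenly. Both genes were lowest in IDD+HTF and highest in IDD+HID.

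All 7 mitochondrial beta oxidation members were highest in IDD+HID. Hadha stood at 60.3, 39.2 and 338 CPM and Hadhb at 34.7, 22.3 and 234 CPM. Their ratios of IDD+HID to IDD were 5.60 (4.03 to 7.99) and 6.73 (4.38 to 10.8), and 3.06 and 3.67 after median-ratio scaling, so the genes of this head-to-head pair had overlapping intervals. Hadhb shares 41.6% of its end words with 2 annotated pseudogenes. The acyl-CoA dehydrogenases of medium, long and very long chains, Acadm, Acadl and Acadvl, were 5.28-fold (3.96 to 7.17), 5.05-fold (3.61 to 7.25) and 2.33-fold (1.57 to 3.54) higher, with 2.88-fold for Acadm and 2.76-fold for Acadl after median-ratio scaling. Hadh, the short-chain hydroxyacyl-CoA dehydrogenase, was 3.76-fold higher (2.85 to 5.03; 2.05-fold after median-ratio scaling). Acaa2, the mitochondrial thiolase, went from 374 CPM in IDD and 250 in IDD+HTF to 1238 in IDD+HID, 3.31-fold over IDD (2.89 to 3.81; 1.81-fold after median-ratio scaling). Acadvl no longer passed 1.5-fold after median-ratio scaling (1.27-fold, 0.854 to 1.93).

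Of the carnitine shuttle, Cpt2, the inner membrane transferase, differed most, at 13.6, 14.7 and 94.2 CPM (6.94-fold, 3.50 to 15.7; 3.79-fold after median-ratio scaling). Cpt1a, the outer membrane transferase and main control point of fatty acid entry, stood at 24.1, 35.9 and 55.3 CPM (2.29-fold, 1.29 to 4.29). Slc25a20, the carnitine carrier, stood at 22.6, 24.8 and 45.1 CPM (1.99-fold, 1.09 to 3.85). These last 2 genes were at 1.25-fold (0.705 to 2.34) and 1.09-fold (0.593 to 2.10) after median-ratio scaling, so that only Cpt2 exceeded the typical gene of the class. Bdh1, which makes the ketone body beta-hydroxybutyrate, stood at 48.3, 41.7 and 154 CPM (3.18-fold, 2.16 to 4.82; 1.74-fold after median-ratio scaling).

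Among the regulators, Ppara itself had 5, 42 and 57 UMIs, or 7.54, 15.1 and 58.4 CPM, 7.74-fold higher in IDD+HID than in IDD (3.13 to 24.7; 4.22-fold after median-ratio scaling). Creb3l3, a liver transcription factor of the fasting response, stood at 119, 147 and 154 CPM. Its ratio of IDD+HID to IDD was 1.29 (0.975 to 1.72) scaled to totals and it was 1.42-fold lower (1.07 to 1.88) after median-ratio scaling, so its direction depended on the scaling. Ppargc1a, the coactivator of both programmes, had 3, 20 and 2 UMIs and was not measured in any comparison.

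The secreted and storage members did not follow 1 pattern. Angptl4, a secreted inhibitor of lipoprotein lipase, stood at 13.6, 50.7 and 64.5 CPM and was higher in both treated libraries, 3.73-fold in IDD+HTF (1.91 to 8.33) and 4.75-fold in IDD+HID (2.35 to 10.9). After median-ratio scaling these were 3.85-fold and 2.59-fold, and IDD+HID was 1.48-fold lower than IDD+HTF (1.10 to 2.03), so the order of the treated libraries depended on the scaling. Plin2, the coat protein of lipid droplets, stood at 275, 150 and 827 CPM, 1.83-fold lower in IDD+HTF (1.53 to 2.18) and 3.01-fold higher in IDD+HID (2.56 to 3.56; 1.64-fold after median-ratio scaling). Fgf21, the fasting hormone of the liver, had 7, 3 and 27 UMIs, Vnn1, a pantetheinase, had 4, 33 and 31, and Pdk4, the kinase that closes pyruvate dehydrogenase, had 4, 4 and 3. None of these 3 reached 50 UMIs in the IDD pairs.

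The 2 gluconeogenic members went opposite ways in IDD+HID. Pck1, which makes phosphoenolpyruvate, stood at 192, 303 and 1038 CPM, 1.58-fold higher in IDD+HTF than in IDD (1.31 to 1.92) and 5.42-fold in IDD+HID (4.50 to 6.57; 2.96-fold after median-ratio scaling). G6pc, the catalytic subunit of glucose-6-phosphatase that releases glucose, stood at 600.4, 402 and 126 CPM. It was 4.77-fold lower in IDD+HID than in IDD (3.88 to 5.88; 8.73-fold after median-ratio scaling) and was the 1 measured member that was at least 1.5-fold lower there. Of the 1013 Pck1 UMIs of IDD+HID, 205 came from 1 cell of 82565 UMIs, which also held 47 UMIs of the immune gene Cd74. Without the 3 IDD+HID cells deeper than any cell of the other libraries, the log2 ratio of Pck1 to IDD was 2.29 instead of 2.44.

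In all, 22 of the 24 measured members (at least 50 UMIs in the pair) were at least 1.5-fold higher in IDD+HID than in IDD and 1 was lower, with a median log2 ratio of 2.42. Of all 2759 measured genes, 64.3% were that much higher and 12.1% lower, with a median of 0.96. After median-ratio scaling, 19 members were higher and 1 lower with a median of 1.54, against 25.4% and 28.6% of all genes and a median of 0.08. In each of these 4 counts every member counted had an interval that left out a ratio of 1. The limit of 50 UMIs is on the pair, for members and all genes alike. Members with few UMIs in IDD passed it only through IDD+HID, such as Cyp4a10, Cyp4a14, Acot1, Ppara and Ehhadh. These members had 0, 0, 0, 5 and 10 UMIs in IDD, so their count as higher was largely set by the limit. Eci1, Eci2, Cpt1a, Cpt2, Hadha, Hadhb, Acadl, Acadvl, Bdh1, Angptl4 and Slc25a20 also had fewer than 50 UMIs in IDD, at 9 to 40. Among the higher members, only Hadh, Acadm, Acaa1b, Acaa2, Plin2 and Pck1 reached the limit in IDD alone. Cyp4a10, Cyp4a14, Acot1, Ppara, Ehhadh and Cpt2 had fewer than 50 UMIs in IDD+HTF too and passed against it only through IDD+HID. Against IDD+HTF, IDD+HID had 22 of 25 measured members higher and 1 lower, where all genes gave 61.7% and 15.4%. After median-ratio scaling the counts were 19 and 2, where all genes gave 27.3% and 32.3%. These 2 comparisons share the IDD+HID library. The members were chosen with earlier results of these data known, so the shares of all genes beside their counts are no independent check.

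Fewer members lay past the limit after holo-transferrin. Of the 19 members measured in IDD+HTF and IDD, 2 were at least 1.5-fold higher and 4 lower, with a median log2 ratio of -0.22, where 18.4% of all 3544 measured genes were higher and 14.2% lower. The higher members were Angptl4 and Pck1. The lower were Plin2, Acadvl (49.8 against 25.9 CPM, 1.92-fold, 1.23 to 2.94), Hadha (1.54-fold, 1.04 to 2.23) and Hadhb (1.56-fold, 0.921 to 2.55), and the interval of Hadhb included a ratio of 1. Acaa1b and G6pc lay just inside the limit, each 1.49-fold lower, as did Acaa2 with an interval of 1.29 to 1.73. After median-ratio scaling 3 were higher and 3 lower, where 19.9% and 12.7% of all genes were. Cpt1a joined the higher ones at 1.54-fold (0.901 to 2.79), with an interval that included 1.

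**Figure D2:**
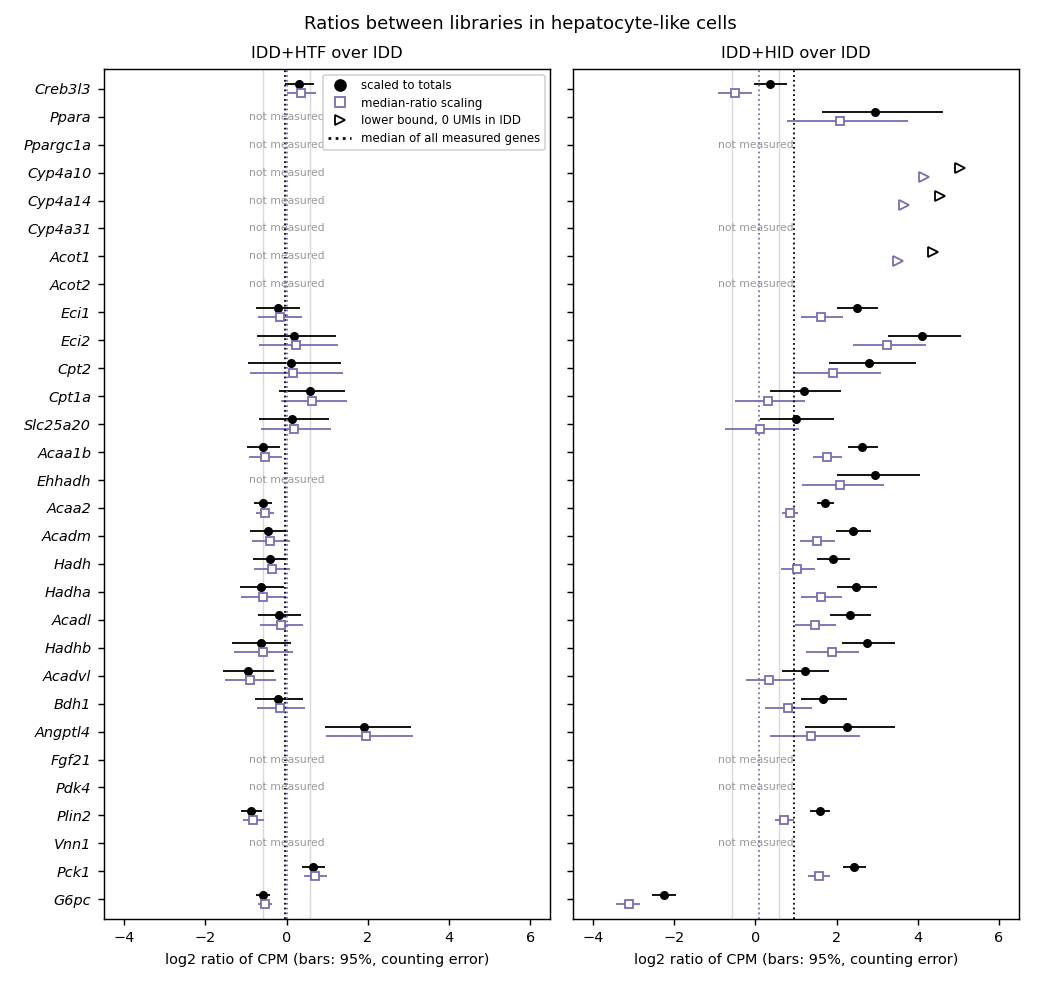
Log2 ratios of CPM in hepatocyte-like cells for IDD+HTF over IDD (left) and IDD+HID over IDD (right), scaled to totals (black circles) and by median ratios (purple squares), with 95% intervals for counting error; triangles are lower bounds for members at 0 UMIs in IDD. Dotted lines mark the median of all measured genes and pale lines the 1.5-fold limits. On the right most members lie beyond their dotted line, and G6pc lies far to the left under both scalings.

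The members fell into 2 kinds when the 3 hepatocyte-like clusters were read apart. Cyp4a10 was at 0 in IDD in all 3 clusters, and in IDD+HID it stood at 302 CPM in cluster 2, 93.0 in cluster 6 and 356 in cluster 7, from 25, 70 and 50 UMIs. Cyp4a14 was likewise at 0 in IDD and at 181, 46.5 and 377 CPM in IDD+HID. Both genes were thus present in every cluster of IDD+HID. In cluster 6, the cell of 82565 UMIs alone gave 14 of the 70 Cyp4a10 UMIs and 15 UMIs of Cyp4a14. The beta oxidation enzymes instead were found mostly in cluster 6. That cluster also had the lowest share of ribosomal RNA and repeats in each library. Median mitochondrial shares were 12.3%, 7.75% and 12.6% in cluster 2 and 2.86%, 5.64% and 6.72% in cluster 6. In cluster 7 they were 8.76%, 4.56% and 11.5%. The part of RNA quality in the split between clusters was not tested. Acadm stood there at 173, 216 and 535 CPM, but at 17.9, 23.0 and 48.4 CPM in cluster 2 and at 80.8, 18.4 and 35.6 CPM in cluster 7. Acot1 in IDD+HID stood at 116 CPM in cluster 6 from 87 UMIs, against 24.2 and 21.3 CPM in clusters 2 and 7 from 2 and 3 UMIs.

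Within cluster 6 alone, 17 of 19 measured members were at least 1.5-fold higher in IDD+HID than in IDD and 0 were lower, where 39.2% of the 2080 measured genes were higher and 8.41% lower. After median-ratio scaling 16 were higher and 1 lower, where 21.5% and 22.2% of all genes were. The limit of 50 UMIs was again on the pair, for members and all genes alike. The cluster held 185168 UMIs in IDD and 752945 in IDD+HID. Of the 17 higher members, only Acaa2, Plin2 and Pck1 reached it in IDD alone, at 160, 80 and 65 UMIs. The others, such as Eci2 at 6 UMIs, passed it only through IDD+HID, which favoured members high in that library. The cell of 82565 UMIs lay in this cluster and gave 205 of the 973 Pck1 UMIs of IDD+HID. Counts without it are not given. Eci2 went from 32.4 to 388 CPM there (interval of the ratio 5.43 to 32.9), Acaa1b from 211 to 835 CPM (3.97-fold, 2.87 to 5.63), Hadha from 130 to 421 CPM (3.25-fold, 2.14 to 5.15) and Pck1 from 351 to 1292 CPM (3.68-fold, 2.86 to 4.81). The differences within the cluster were smaller than over the class for these beta oxidation genes. Their class values therefore hold both a difference within cluster 6 and the larger share of cluster 6 in IDD+HID. In clusters 2 and 7, 37 and 48 cells of IDD+HID gave few counts: 2 members were measured against IDD in cluster 2, with 0 higher and 1 lower (all genes 31.0% and 17.7%), and 7 in cluster 7, with 2 higher and 3 lower (all genes 18.8% and 28.8%). The higher ones in cluster 7 were Cyp4a10 and Cyp4a14, which were at 0 in IDD and passed the count limit only through IDD+HID. Single enzymes had at most 28 UMIs per library in cluster 2. Acaa1b was 2.82-fold higher there in IDD+HID (1.09 to 7.11) and Cpt1a 4.73-fold (1.29 to 18.9), on 10 and 7 UMIs. In those 37 cells of IDD+HID the sinusoidal markers summed to 3313 CPM, against 39.3 in IDD. Kupffer markers summed to 738 against 53.6 CPM and dissociation genes to 4220 against 579 CPM. Their part in these values was not tested. In cluster 7, Cpt1a was 2.64-fold higher (1.05 to 7.20) and Acaa2 0.517 times its IDD level (0.302 to 0.855). The depth of those clusters did not settle a direction for most of the enzymes.

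For holo-transferrin, cluster 6 gave 3 of 14 measured members higher and 0 lower, where 20.4% of its 1506 measured genes were higher and 8.37% lower. After median-ratio scaling 3 were higher and 3 lower, where 12.6% and 15.2% of all genes were. Acaa1b (211 against 206 CPM), Hadha (130 against 122 CPM) and Hadh (194 against 195 CPM) were nearly equal in IDD and IDD+HTF there. Pck1 was 2.34-fold higher in IDD+HTF (1.80 to 3.09). The ratio of Hadha there, 0.941, had an interval of 0.581 to 1.57 that also includes its ratio over the class, 0.649.

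G6pc showed the reverse distribution. It stood at 565, 352 and 326 CPM in cluster 2 and at 1116, 701 and 313 CPM in cluster 7, but at 103, 78.8 and 69.1 CPM in cluster 6. IDD+HID was 1.73-fold lower than IDD in cluster 2 (1.15 to 2.71), 3.56-fold lower in cluster 7 (2.57 to 5.05) and 1.49-fold lower in cluster 6 (0.830 to 2.56). The direction was the same in the 3 clusters, while the 4.77-fold of the class also holds the shift of cells towards cluster 6.

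**Figure D3:**
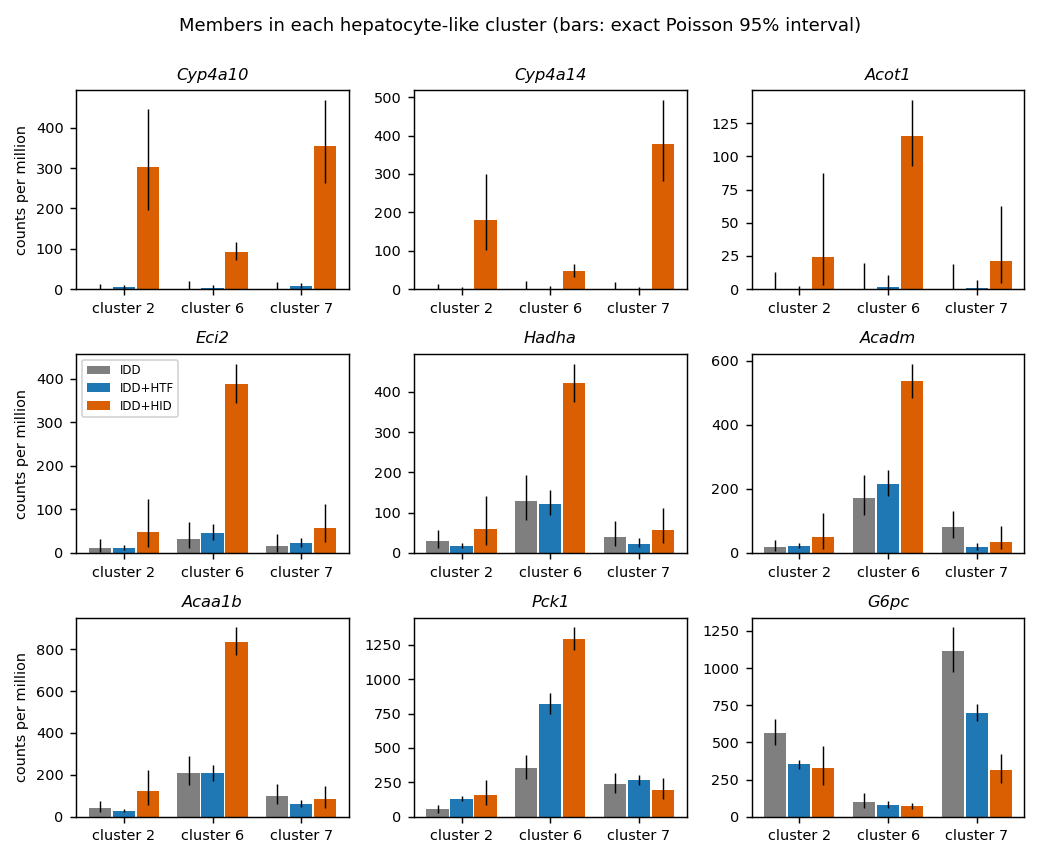
CPM of 9 members in hepatocyte-like clusters 2, 6 and 7, by library, with exact Poisson 95% intervals. Cyp4a10 and Cyp4a14 have orange bars in all 3 clusters, Eci2, Hadha, Acadm and Acaa1b are tall in cluster 6 alone, and G6pc is low in cluster 6.

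Droplets of at most 100 UMIs hold free RNA released by broken cells and do not depend on cell filters or clusters. In them Cyp4a10 stood at 2.39, 8.70 and 47.3 CPM and Cyp4a14 at 3.18, 4.12 and 42.6 CPM. Per Alb UMI, IDD+HID was 8.15-fold higher than IDD for Cyp4a10 (4.15 to 18.3) and 5.50-fold for Cyp4a14 (3.02 to 11.0). Vnn1 (3.20-fold, 1.75 to 6.31), Acot1 (3.06-fold, 1.53 to 6.76) and Angptl4 (2.80-fold, 1.64 to 5.06) were also higher. G6pc was 5.96-fold lower per Alb UMI. For most of the beta oxidation enzymes the direction depended on the scale, since Alb itself stood at 4675, 7965 and 11366 CPM in this RNA. Eci2 and Acadvl were above 1 on both scales, with intervals per Alb UMI that included 1. By CPM, IDD+HID was higher than IDD for Eci2 (3.10-fold, 2.17 to 4.49), Acaa1b (1.98-fold, 1.42 to 2.77), Hadha (1.61-fold, 1.18 to 2.19) and Acaa2 (1.44-fold, 1.18 to 1.75). Per Alb UMI, Eci2 was at 1.27 times its IDD level (0.891 to 1.85), Acaa1b at 0.815 (0.586 to 1.14), Hadha at 0.662 (0.487 to 0.902) and Acaa2 at 0.591 (0.485 to 0.720). Pck1 was at 0.978 times its IDD level by CPM (0.772 to 1.23) and at 0.402 per Alb UMI (0.318 to 0.508). Cyp4a10, Cyp4a14, Acot1, Vnn1 and Angptl4 were higher and G6pc was lower on both scales. Free RNA comes from all cell classes, several of which also held Hadha and Acaa2. Acot1 was also higher in IDD+HID than in IDD in Kupffer-like cells, and Angptl4 in Kupffer-like and stellate-like cells, as given below.

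**Figure D4:**
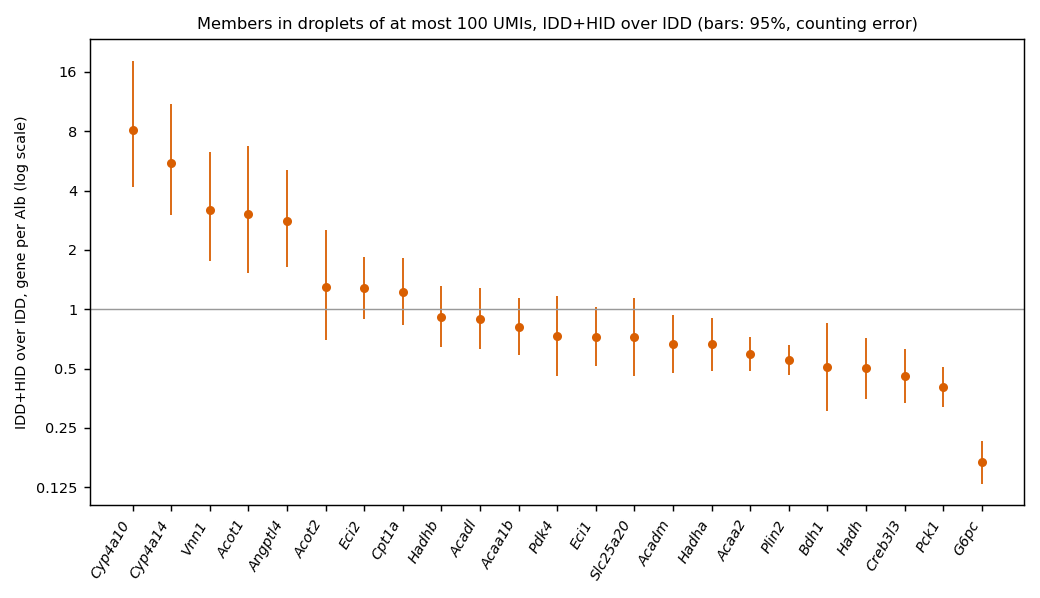
Ratio of IDD+HID to IDD in droplets of at most 100 UMIs for members with at least 50 UMIs there, as gene per Alb UMI on a log axis, with 95% intervals for counting error. Cyp4a10, Cyp4a14, Vnn1, Acot1 and Angptl4 lie above 1, most beta oxidation enzymes at or below 1, and G6pc at the far right lowest.

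Hepatocytes are zoned along the lobule, and Cyp2e1 marks the cells near the central vein. It stood at 125, 322 and 922 CPM in the class. In IDD+HID, 101 cells held at least 2 Cyp2e1 UMIs and 124 held none, at median depths of 2205 and 2649.5 UMIs. Acot1 stood at 175 CPM in the former and 41.1 in the latter, Cyp4a10 at 218 and 107, and Cyp4a14 at 169 and 63.5. Pck1 ran the other way, at 405 and 1433 CPM, while Hadha (322 and 342 CPM) and Ehhadh (106 and 125 CPM) were close. The cell of 82565 UMIs lay among those without a Cyp2e1 UMI. It held 14 of their 57 Cyp4a10 UMIs, 15 of 34 for Cyp4a14 and 205 of 767 for Pck1. Cells without a Cyp2e1 UMI still gave Cyp4a10 at 0 CPM in IDD (200 cells) against 107 in IDD+HID. The split uses the UMIs of 1 gene and marks a range of cells, not a type.

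The other genes of the pathways were read from lists of related genes in the same cells. These lists too were chosen with earlier results of these data known. Of 29 other beta oxidation genes, 20 were measured in IDD+HID against IDD and all 20 were at least 1.5-fold higher scaled to totals (median log2 1.56), where 64.3% of all genes were. After median-ratio scaling 12 of the 20 were higher and 0 lower (median 0.69), where 25.4% and 28.6% of all genes were. Crot, which moves shortened chains out of the peroxisome, stood at 107, 123 and 1111 CPM. Etfdh, which passes electrons from the dehydrogenases to the respiratory chain, stood at 22.6, 26.2 and 131 CPM, the isomerase Ech1 at 93.5, 76.2 and 523 CPM, and the peroxisomal Hsd17b4 at 54.3, 35.6 and 295 CPM. In IDD+HTF, 1 of 20 was higher (Acadsb) and 5 were lower, with Abcd3, Decr2 and Acaa1a among them, where 18.4% and 14.2% of all genes were. After median-ratio scaling 1 was higher and 3 lower, where 19.9% and 12.7% of all genes were.

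Of 7 other ketogenesis genes, 4 were measured, with 3 higher and 1 lower in IDD+HID than in IDD under both scalings, too few to set against the 64.3% and 25.4% of all genes. Acat1, a mitochondrial acetoacetyl-CoA thiolase, was among the higher, at 143, 138 and 841 CPM. Slc16a1, which carries ketone bodies and lactate across the cell membrane, was the lower one, at 69.4, 69.7 and 45.1 CPM. In IDD+HTF, 0 of the 4 were higher and 1 was lower, again too few to set against the 18.4% and 14.2% of all genes.

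Of 34 other PPAR alpha targets, 15 were measured in IDD+HID against IDD, with 8 higher and 4 lower scaled to totals, where 64.3% and 12.1% of all genes were. After median-ratio scaling 6 were higher and 6 lower, where 25.4% and 28.6% of all genes were. Fabp1, shown above with its promoter repeat, stood at 8643, 5664 and 33697 CPM, and Fabp2, its intestinal relative, at 95.0, 70.1 and 520.4 CPM. Mgll, a monoglyceride lipase, Txnip and Pex11a, which divides peroxisomes, had log2 ratios of 2.33, 2.46 and 2.25. The lower genes included Cyp8b1 of bile acid synthesis (237, 133 and 65.6 CPM), Acsl5 (241, 119 and 97.3 CPM) and Apoa5 (727, 1694 and 342 CPM). Of 18 genes of this list measured in IDD+HTF and IDD, 1 (Apoa5) was at least 1.5-fold higher in IDD+HTF and 4 were lower. Of all genes, 18.4% and 14.2% were. This broader list of targets thus held genes on both sides of the limit in IDD+HID.

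Of 22 other gluconeogenesis and fasting genes, 11 were measured in IDD+HID against IDD, with 3 higher and 2 lower scaled to totals (all genes 64.3% and 12.1%), and 2 higher and 7 lower after median-ratio scaling (all genes 25.4% and 28.6%). Slc37a4, the transporter that feeds glucose-6-phosphatase, stood at 131, 119 and 29.7 CPM and so was low in IDD+HID together with G6pc. Fbp1, a gluconeogenic phosphatase, stood at 956, 450 and 1588 CPM, and Igfbp1, an insulin-repressed secreted protein, at 151, 67.2 and 68.6 CPM. The higher genes included Cebpb (69.4, 110 and 218 CPM) and the glucocorticoid receptor Nr3c1 (13.6, 36.6 and 43.0 CPM). In IDD+HTF, 2 of 15 were higher and 3 lower, with Igfbp1, Fbp1 and Tat lowest, near the 18.4% and 14.2% of all genes. Of 14 nuclear receptors and cofactors, 6 were measured in IDD+HID against IDD. Scaled to totals 4 were higher and 0 lower, a share near the 64.3% of all genes. After median-ratio scaling 3 were higher and 1 lower, where 25.4% and 28.6% of all genes were. The bile acid receptor Nr1h4 stood at 12.1, 15.8 and 72.7 CPM, the corepressor Ncor1 at 18.1, 31.3 and 92.2 CPM, and Nr0b2 at 27.2, 24.4 and 100.4 CPM. Rxra, the partner of PPAR alpha, stood at 90.5, 94.5 and 69.7 CPM.

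Outside hepatocytes, the members were less alike. In IDD+HID, 26 of the 30 members had their highest level among 8 named classes in hepatocyte-like cells, while 15 did in IDD, leaving out Cyp4a14, which was at 0 in all 8 classes there, and 15 in IDD+HTF. The exceptions in IDD+HID were Acot2 and Cpt1a (Kupffer-like), Pdk4 (sinusoidal endothelial-like) and Ppargc1a (vascular endothelial-like). Some leads were narrow, as for Acot1 at 94.2 CPM against 89.2 in Kupffer-like cells. These levels are scaled to totals, where the median hepatocyte-like gene was itself 0.96 higher (log2) in IDD+HID than in IDD. The same count over all genes was not made, so the move from 15 to 26 cannot be read as particular to the members. The level that free RNA would give was computed from the ratio of the gene to Alb in droplets of at most 100 UMIs and the Alb of the class. That RNA comes from all classes, not from hepatocytes alone.

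Kupffer-like cells, the resident macrophages of the liver (89, 379 and 539 cells), carried Acot1 at 24.7, 59.5 and 89.2 CPM from 26, 366 and 787 UMIs. The free RNA level was 0.0637, 0.196 and 0.743 CPM. Acot1 was 2.41-fold higher in IDD+HTF than in IDD there (1.62 to 3.73) and 3.61-fold in IDD+HID (2.45 to 5.56). In cluster 3, the larger Kupffer-like cluster of IDD, it stood at 26.5, 55.9 and 88.0 CPM, so the order of the libraries held within that cluster. Cluster 21, with 13, 65 and 286 cells, had 1, 73 and 412 Acot1 UMIs, or 9.33, 79.8 and 90.4 CPM, and there IDD+HID and IDD+HTF differed by a ratio of 1.13 (0.881 to 1.47). In the whole class the dissociation genes summed to 9348, 13075 and 17757 CPM and the sinusoidal markers to 297, 984 and 1606 CPM, and their part was not tested. Angptl4 stood at 3.80, 9.42 and 16.9 CPM, 4.44-fold higher in IDD+HID (1.70 to 16.5) from 4 UMIs in IDD. Pdk4 had 3, 98 and 102 UMIs, or 2.85, 15.9 and 11.6 CPM. Acot2 stood at 31.4, 42.7 and 47.1 CPM and Plin2 at 252, 234 and 332 CPM. Of the 18 measured members, 4 were at least 1.5-fold higher in IDD+HTF than in IDD and 0 lower, where 15.1% of all genes were higher and 5.61% lower. In IDD+HID 6 were higher and 0 lower, where 18.7% and 7.58% of all genes were.

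Sinusoidal endothelial-like cells (317, 756 and 1107 cells) carried Pdk4 at 159, 191 and 121 CPM, far above hepatocyte-like cells, and at 0.762 times the IDD level in IDD+HID (0.654 to 0.891). Acadl stood at 43.9, 74.4 and 89.2 CPM there, 2.03-fold higher in IDD+HID (1.54 to 2.73), and Cpt1a at 55.5, 78.9 and 87.9 CPM. Cyp4a10 was at 10.8, 11.9 and 10.9 CPM from 13, 62 and 119 UMIs, where free RNA would give 0.230, 0.580 and 2.96 CPM. Its level there was therefore even across the libraries in which hepatocyte-like cells ranged from 0 to 149 CPM. Of 18 measured members, 3 were higher in IDD+HTF and 0 lower, where 9.65% and 10.0% of all genes were. Of 20 in IDD+HID, 4 were higher and 1, Ppargc1a, was lower, where 14.4% and 19.2% of all genes were. In stellate-like cells (136, 143 and 114 cells), Angptl4 stood at 13.2, 24.5 and 56.1 CPM (4.24-fold in IDD+HID, 2.13 to 9.57) and Acaa2 at 99.9, 189 and 248 CPM (2.48-fold, 1.91 to 3.26). In the same cells the sinusoidal markers summed to 3092, 9495 and 11125 CPM, the Kupffer markers to 42.6, 2111 and 1340 CPM and the dissociation genes to 5798, 12314 and 17914 CPM, and their part in these values was not tested.

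**Figure D5:**
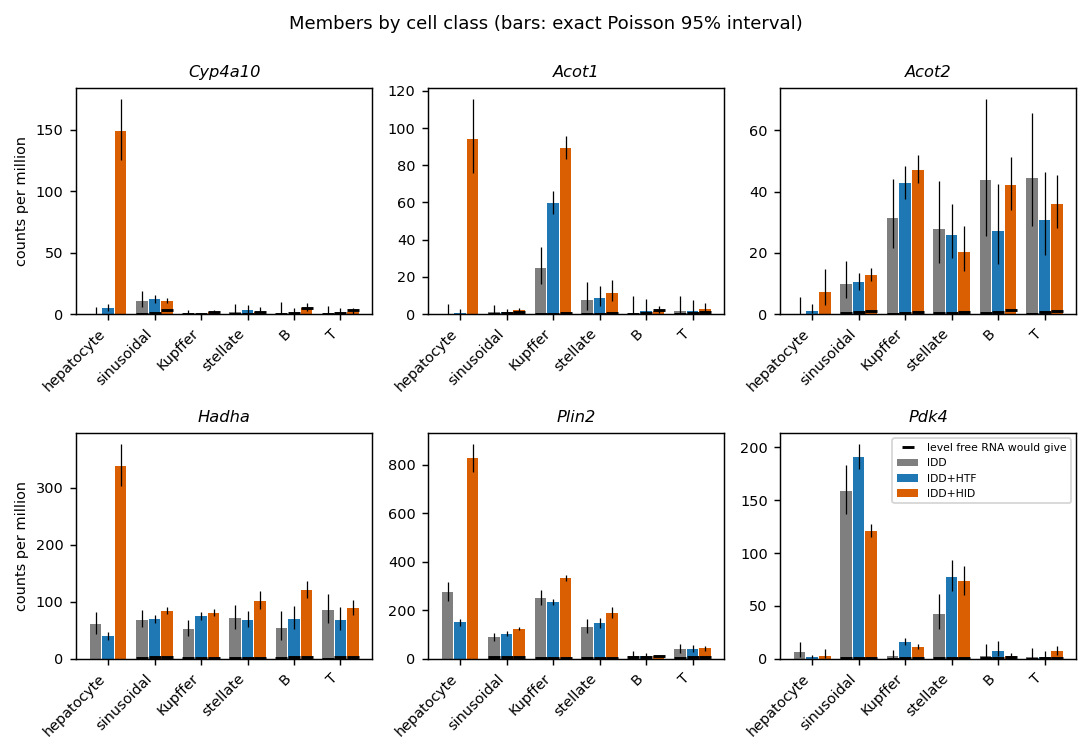
CPM of 6 members in 6 cell classes, by library, with exact Poisson 95% intervals. Black dashes mark the level that free RNA would give outside hepatocytes. Cyp4a10 and Hadha are highest in hepatocyte-like cells of IDD+HID, Acot1 also stands out in Kupffer-like cells and Pdk4 in sinusoidal endothelial-like cells.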

How the data were processed

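The deposited values are raw UMI counts per gene and barcode from 10x Genomics 3' droplet libraries. Per the submitters' processing notes the build is GRCm38 and Seurat 4 was used. The aligner is not given in the sources used here, nor is the counter. Gene IDs were named from GENCODE M21.

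Cells had at least 1000 UMIs, 300 genes and at most 20% mitochondrial UMIs, which left 1311, 3203 and 3538 cells with medians of 3639, 4449 and 8596 UMIs. Called doublets were removed, but calls were 1.72%, 0.156% and 0.197%, so the caller failed in the last 2 libraries. Each pair of libraries shared 1 cell barcode. Clusters (scanpy 1.11.5, Leiden, resolution 1) were named from markers. UMIs were summed per class and library, and CPM, exact Poisson intervals and exact conditional binomial intervals of ratios (scipy 1.17.1) were computed, with a 1.5-fold limit and at least 50 UMIs in the pair. Intervals and floors (3 counts) cover counting error only. Median-ratio factors used 4627 genes; TMM came from edgeR 4.0.16, with no edgeR test, since 1 mouse per group allows none. The scripts were tested on simulated data.

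The members and lists were chosen with earlier results of these data known. Members were named by role, and from each related list up to 4 genes per comparison with the largest ratios, plus Fabp1, Fbp1 and Igfbp1. Some genes that this rule names are not reported here. Alternatives covered scaling, cell filters, clustering, weighting of cells, the fold limit and the count limit.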

Additional observations from a re-analysis of the deposited data

How the results depend on the processing

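With 1 mouse per group, differences between mice, feeding state, handling and treatment cannot be told apart, and food intake is not given in the labels. No paired analysis was possible because the groups share only replicate number 1. Low counts in IDD limit the members at 0 there to lower bounds. Of the counts and medians over the members under each alternative, 120 stayed within 1.5 times or in place, 34 moved and 5 changed sign; of the values of single members, 518 stayed, 275 moved and 23 changed sign. Where a value moved, the cause was not tested. The counts below are given without the number of members measured or the share of all genes under the same alternative. A filter can move all genes, so these counts show only how far the numbers vary. They do not set the members against all genes. Thinning each cell to 1000 UMIs and averaging over cells give the same values by construction.

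For IDD+HTF over IDD, the number of members higher (2) was 4 with a mitochondrial limit of 40%, 1 with a 2-fold limit, 10 with no filter beyond 1 UMI and 1 in cluster 7 alone. The number lower (4) was 8 with at least 2000 UMIs per cell, 10 with a mitochondrial limit of 10%, 2 with 40%, 7 with a marker cut without clusters, 0 with a 2-fold limit, 7 with no filter and 0 in cluster 6 alone. The median (-0.22, log2) turned to 0.017 with the 40% limit, 0.11 with clusters weighted equally and 0.026 in cluster 6 alone.

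For IDD+HID over IDD, the number higher (22) was 0 in cluster 2 alone and 2 in cluster 7 alone, and the number lower (1) was 3 with no filter, 0 in cluster 6 alone and 3 in cluster 7 alone. The median (2.42) was 1.54 with median-ratio scaling, 1.55 with TMM, 1.44 with clusters weighted equally, 1.70 in cluster 6 alone, and turned to -0.20 in cluster 2 and -0.30 in cluster 7 alone. Log2 ratios that turned were, in cluster 2 alone, Ehhadh -0.56, Bdh1 -0.15 and Slc25a20 -1.05, and in cluster 7 alone, Cpt2 -0.51, Hadhb -0.090, Hadh -1.17, Acadm -1.18, Acadvl -0.51, Acaa1b -0.24, Acaa2 -0.95, Bdh1 -0.96, Plin2 -0.63 and Pck1 -0.30.

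For IDD+HID over IDD+HTF, the number higher (22) was 4 in cluster 2 alone and 4 in cluster 7 alone. The number lower (1) was 2 with median-ratio scaling, 2 with TMM, 2 with no filter, and 0 in cluster 2 and 0 in cluster 6 alone. The median (2.46) was 1.54 with median-ratio scaling, 1.56 with TMM, 1.27 with clusters weighted equally, 1.97 with totals without mitochondrial and ribosomal RNA, and 0.69, 1.33 and 0.47 in clusters 2, 6 and 7 alone. Log2 ratios that turned were Cpt1a -0.30 and Slc25a20 -0.057 with median-ratio scaling, Cpt1a -0.28 and Slc25a20 -0.039 with TMM, Hadh -0.44 and Slc25a20 -0.64 in cluster 2 alone, and Cpt2 -0.64, Hadh -0.13, Bdh1 -0.33 and Pck1 -0.47 in cluster 7 alone. The single clusters, the totals without ribosomal RNA and the exclusion of the deepest cells were chosen after seeing the data.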
